A study of Mus musculus with 11 samples.

Results

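The genes described here are 50 mouse genes known as type I interferon-stimulated genes, antiviral genes that cells switch on in answer to interferon alpha and beta. They were taken by name from the deposited count table of 42375 named genes. The list was chosen with earlier results of these data known, so it is not independent of them. Of the 50, 49 passed the filter on low counts, which kept 15024 genes, and Trex1 had a count of 0 in all 11 libraries. RNA was sequenced from macrophages grown from the bone marrow of C57BL/6 mice, in an M1 or an M0 state. The M1 KD group (2 libraries, numbered 5 and 6) were M1 cells given a gapmer that targets MERRICAL, a long noncoding RNA, and the M1 NS group (3 libraries, numbered 1, 2 and 4) were M1 cells given the gapmer labelled NS. The M0 KD and M0 NS groups (3 libraries each, numbered 1, 2 and 4) were M0 cells with the same gapmers. Gapmers are antisense oligonucleotides that make RNase H cut the matching RNA, and all 4 groups received one for 16 hours, so no group is without a gapmer. No gene of the table is named MERRICAL, so the level of the targeted RNA was not analysed here. The sources used here do not give the stimulus behind the M1 label, the meaning of the library numbers, the sex and age of the mice or whether libraries came from separate cultures. The p-values therefore measure the spread between these libraries alone, and that spread may be technical.

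Type I interferon binds the receptor chains Ifnar1 and Ifnar2, which activate the kinases Jak1 and Tyk2. These act on transcription factors such as Stat2, which joins Irf9 in a complex that binds a promoter element called the interferon-stimulated response element, or ISRE. In macrophages the same genes can also be driven by interferon gamma, by IRF factors directly and by microbial products that induce interferon beta. Their products block viral entry, translation and replication, sense foreign nucleic acid, or modify proteins with the ubiquitin-like Isg15.

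Promoter sequences were read to see which members carry the core letters of the ISRE around their start. RefSeq windows on GRCm38.p6, 250 bases before to 50 bases after the annotated start, were at hand for 38 of the 50 members, and none was used for Usp18, Oas2, Mx1, Mx2, Dhx58, Zbp1, Ifi204, Mnda, Parp9, Parp14, Ifi27l2a and Rtp4. The letters GAAANNGAAA, searched on both strands with overlapping matches allowed, were present in 20 of the 38 (52.6%), against 3.99% of 27025 genes with a window of that length. All 3 sensor genes, all 3 Ifi200 genes and both Trim30 genes with a window held the ISRE letters, as did 3 of 5 Oas genes, 2 of 3 Ifit genes and 2 of 4 Schlafen genes. For Ifih1, Ddx58 and Eif2ak2 the only match lay within the 50 bases after the start, and the other members with the letters had a match before it. A match is a description of letters and not a bound site.

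The 160 bases just upstream of the start are printed for 7 members, 5′ to 3′ on the strand of the gene, with the ISRE letters of either strand in capitals. Isg15, Ifit1 and Rsad2 are strongly M1-associated genes with matches. Oas1a and Oas1g are close paralogs. Bst2 and Oasl1 are members whose difference between the gapmers was not the same in both states, 1 with matches and 1 without.
Isg15, chr4:156200819-156200978, minus strand: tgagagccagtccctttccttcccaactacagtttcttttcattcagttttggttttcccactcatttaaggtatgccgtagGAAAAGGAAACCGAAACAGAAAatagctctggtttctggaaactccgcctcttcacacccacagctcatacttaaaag
Ifit1, chr19:34640729-34640888, plus strand: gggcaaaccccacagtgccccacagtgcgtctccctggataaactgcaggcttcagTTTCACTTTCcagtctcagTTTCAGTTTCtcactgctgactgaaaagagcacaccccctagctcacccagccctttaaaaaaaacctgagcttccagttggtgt
Rsad2, chr12:26456453-26456612, minus strand: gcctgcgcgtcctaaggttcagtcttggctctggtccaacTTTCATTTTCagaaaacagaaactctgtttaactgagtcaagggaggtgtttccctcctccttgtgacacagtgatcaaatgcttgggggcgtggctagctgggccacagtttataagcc
Oas1a, chr5:120907526-120907685, minus strand: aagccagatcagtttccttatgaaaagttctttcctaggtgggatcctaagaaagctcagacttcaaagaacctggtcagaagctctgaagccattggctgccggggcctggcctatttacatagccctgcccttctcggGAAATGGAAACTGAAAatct
Oas1g, chr5:120887614-120887773, minus strand: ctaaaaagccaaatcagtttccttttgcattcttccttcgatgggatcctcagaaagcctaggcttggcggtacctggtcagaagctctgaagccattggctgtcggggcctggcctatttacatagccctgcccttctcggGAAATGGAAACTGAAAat
Bst2, chr8:71537473-71537632, minus strand: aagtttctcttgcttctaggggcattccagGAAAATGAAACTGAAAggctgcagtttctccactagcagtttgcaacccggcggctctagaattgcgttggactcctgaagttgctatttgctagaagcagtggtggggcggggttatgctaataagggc
Oasl1, chr5:114923080-114923239, plus strand: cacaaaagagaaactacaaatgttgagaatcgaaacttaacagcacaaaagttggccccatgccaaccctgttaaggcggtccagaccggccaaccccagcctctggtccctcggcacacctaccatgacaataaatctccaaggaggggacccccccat
In Isg15 the capitals are 3 overlapping matches that together span bases -78 to -57 from the start. In Oas1a and Oas1g an overlapping pair of matches lies at bases -20 to -5 and -18 to -3. Matches written as TTTC to TTTC, as in Ifit1 and Rsad2, lie on the opposite strand. Over the members with a window, the 20 with ISRE letters had a median log2 fold change of 1.92 in M1 NS against M0 NS and the 17 tested members without them had 3.01.

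Total counts per library ran from 30040632 to 43250392, and levels are given as CPM with TMM scaling of the library totals. In a principal component analysis over all tested genes, M1 and M0 libraries separated on component 1 (70.3% of the variance) and M1 KD and M1 NS on component 2 (12.3%). The macrophage markers Emr1 (Adgre1), Csf1r and Cd68 were present in every library, with the lowest single value 294 CPM (Cd68, M1 NS 4). Their levels were not constant: Csf1r averaged 707 CPM in M1 NS and 4010 CPM in M0 NS. Cd68 averaged 362 CPM in M1 NS, 1788 CPM in M1 KD and 1154 CPM in M0 NS. Of the markers of T and NK cells, Cd3e, Ncr1 and Klrb1c stayed under 1 CPM in every library, while Lck, Cd8a and Klrk1 did not and are given with the comparisons. The 2 M1 KD libraries and the 3 M0 NS libraries differed among themselves over the member genes, as described with the comparisons they touch.

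M1 cells had far higher levels of nearly every member than M0 cells under the NS gapmer. In M1 NS against M0 NS, 48 of the 49 tested members rose and 0 fell, where 26.9% of all genes tested rose, 28.6% fell and 55.5% were called in either direction (edgeR quasi-likelihood test, Benjamini-Hochberg adjusted p under 0.05 over 15024 genes). No member had an unadjusted p under 0.05 with a lower level in M1 NS, where 31% of all genes did, and DESeq2 called 0 members lower. The median log2 fold change of the members was 2.11, beside -0.04 over all genes, with a range of 0.38 to 6.17. The ranges of M1 NS and M0 NS did not overlap for 47 members, where 28.6% of all genes lay apart with M1 NS above. In bulk RNA a change in the share of cells of a type and a change in RNA per cell cannot be told apart. How large the M1 and M0 levels are against each other depends on the scaling: with scaling by library size alone, without TMM factors, the median of all genes moved to -0.42, the members' median was 1.72 and 46 were called, all higher. Of 8 macrophage markers 4 rose and 3 fell, and all 7 markers of classical activation, such as Nos2 and Il12b, rose. Markers of other cells also moved with the state. Of 10 markers of neutrophils and their precursors 9 fell, with a summed level of 236 to 308 CPM in M1 NS and 1240 to 2200 CPM in M0 NS. Both tested T cell markers (Lck and Cd8a) and the tested NK cell marker (Klrk1) rose, with summed levels of 1.26 to 4 CPM (T cells) and 21 to 33.7 CPM (NK cells) in M1 NS, against 0.524 to 1.09 CPM and 1.64 to 3.82 CPM in M0 NS. The other markers of these lists, Cd3e, Cd3d, Cd3g, Ncr1 and Klrb1c, did not pass the filter, and their means were lower in M1 NS. Cd3e averaged 0.0225 CPM in M1 NS and 0.158 CPM in M0 NS, and Klrb1c 0 and 0.0634 CPM. The rise of the sums thus rests on Lck, Cd8a and Klrk1. Of 6 dendritic cell markers 3 rose and 2 fell. The mitochondrial share of counts was 0.488% to 0.891% in M1 NS and 1.02% to 1.14% in M0 NS. The part of these measures in the member levels was not tested.

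**Figure D1:**
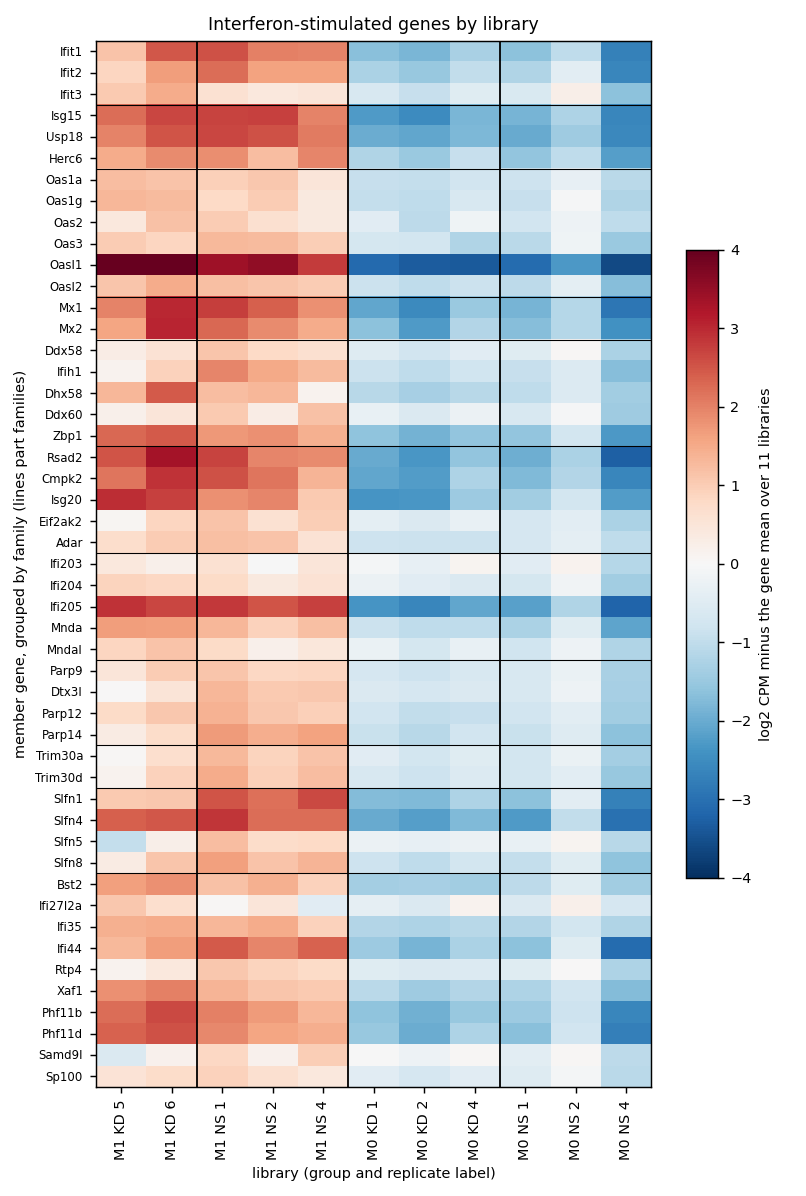
Level of the 49 tested member genes in each of the 11 libraries (columns, M1 KD, M1 NS, M0 KD and M0 NS from left to right, by replicate label). Colour is log2 CPM minus the mean of that gene over all 11 libraries, and lines part families (rows) and groups. M1 columns are red and M0 columns blue for most genes, and column M0 NS 4 is the darkest blue for most of them.

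The Ifit genes encode proteins with tetratricopeptide repeats that bind foreign RNA and block its translation. All 3 rose in M1 NS, with a median log2 fold change of 3.02. Ifit1 measured 1065, 739 and 718 CPM in M1 NS and 59.1, 91.6 and 28.3 CPM in M0 NS, so every M1 NS library was far above every M0 NS library. Its log2 fold change was 3.82 (SE 0.44, edgeR adjusted p = 1.48e-05). Ifit3 was closer, at 482, 422 and 438 CPM in M1 NS and 206, 374 and 99.8 CPM in M0 NS, with an edgeR log2 fold change of 0.98 (SE 0.35, adjusted p = 0.0296). The call of Ifit3 was lost with library size alone, in the fit of the 2 groups alone, with a trend in transcript length, GC and exons removed (the length trend) and without 5 of the 6 libraries compared, the exception being M0 NS 2. Ifit3 shares 51.2% of its 50-base windows with its copy Ifit3b, so its counts are uncertain.

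In the Isg15 system, Isg15 is the ubiquitin-like modifier, Usp18 removes it and also restrains the interferon receptor, and Herc6 is the mouse ligase that attaches it. All 3 rose, and their median of 4.31 was the highest of the 11 families. Isg15 measured 1042, 1074 and 632 CPM in M1 NS and 44.1, 68.5 and 26.1 CPM in M0 NS. Usp18, with the largest rise of the family, measured 803, 735 and 530.2 CPM in M1 NS and 31.1, 46.4 and 20.8 CPM in M0 NS, and the test gave an edgeR log2 fold change of 4.396 (SE 0.30, adjusted p = 1.99e-07). Per kilobase of annotated exons, with all transcripts of a gene merged, Isg15 averaged 1212 CPM per kb in M1 NS. This was the highest member level in that group, and levels per kilobase are meant in this way throughout.

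The Oas enzymes make short 2′-5′ linked oligoadenylates that activate RNase L, while Oasl1 and Oasl2 are relatives, of which mouse Oasl1 is known to restrain translation of Irf7. All 6 rose, with a median of 1.79. Oasl1 stood apart from the other 5 and from all other members. It measured 1823, 2019 and 1205 CPM in M1 NS and 20.6, 35.2 and 14.3 CPM in M0 NS, an edgeR log2 fold change of 6.17 (SE 0.35, adjusted p = 5.15e-08). The other 5 members had log2 fold changes of 1.32 (Oas2) to 2.05 (Oasl2). Per kilobase Oasl1 averaged 645 CPM per kb in M1 NS and 8.96 CPM per kb in M0 NS. Oas1a shares 57.6% of its 50-base windows with Oas1g, so the values of this pair depend on how shared reads were counted, which the sources used here do not give.

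The Mx GTPases trap viral ribonucleoproteins. C57BL/6 mice are known to carry defective Mx genes that give RNA without full-length protein. Both Mx genes rose. Mx1 measured 2198, 1694 and 1135 CPM in M1 NS and 88.8, 145 and 43.5 CPM in M0 NS, an edgeR log2 fold change of 4.18 (SE 0.48, adjusted p = 1.35e-05), and Mx2 had 3.58.

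Among nucleic acid sensors, Ddx58 (RIG-I) and Ifih1 (MDA5) detect viral double-stranded RNA, Dhx58 (LGP2) modulates both, and Zbp1 senses left-handed nucleic acid and can start necroptosis. All 5 rose, with a median of 1.94. Zbp1 rose most and measured 495, 522 and 395 CPM in M1 NS and 49.3, 89.9 and 29.96 CPM in M0 NS, an edgeR log2 fold change of 3.06 (SE 0.32, adjusted p = 6.45e-06). Ifih1 measured 702, 513 and 435 CPM in M1 NS and 94.2, 123 and 55.8 CPM in M0 NS. The lowest value of M1 NS was above the highest of M0 NS for every sensor.

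Of the enzymes that act on RNA and nucleotides, Rsad2 (viperin) makes a chain-terminating nucleotide from CTP, Cmpk2 is a mitochondrial nucleotide kinase, Isg20 is a 3′ exonuclease, Eif2ak2 (PKR) halts translation on double-stranded RNA and Adar edits adenosine in it. The 5 tested genes rose, with a median of 3.01. Rsad2 measured 6585, 3934 and 3701 CPM in M1 NS and 262, 415 and 104 CPM in M0 NS, an edgeR log2 fold change of 4.19 (SE 0.48, adjusted p = 1.33e-05). Rsad2 and Cmpk2 lie head to head on chromosome 12, and Cmpk2 had a log2 fold change of 3.82. Isg20 measured 90.4, 99.2 and 53 CPM in M1 NS and 9.64, 15.2 and 5.38 CPM in M0 NS, the lowest level per kilobase of the tested enzymes in M0 NS. Trex1, the DNA exonuclease that degrades cytosolic DNA, lies within the annotated span of Atrip at chr9:109057933-109059734 on GRCm38 and shares 95.6% of its 50-base windows with it. Its count of 0 was not used as a measure of its level.

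The Ifi200 genes lie together on chromosome 1 and encode proteins with HIN domains that bind DNA. All 5 rose, with a median of 1.23, the lowest of the families. Ifi205 was the exception in size, at 407, 326 and 377 CPM in M1 NS and 12.6, 24.7 and 6.14 CPM in M0 NS, an edgeR log2 fold change of 4.68 (SE 0.41, adjusted p = 1.43e-06). Ifi203 measured 307, 198 and 277 CPM in M1 NS and 147, 219.5 and 90.7 CPM in M0 NS, and these ranges overlapped. The test gave an edgeR log2 fold change of 0.77 (SE 0.27, adjusted p = 0.028), a call that was lost with library size alone, in the fit of the 2 groups alone, and without M1 NS 1, M1 NS 4, M0 NS 1 or M0 NS 4. The gene counted as Mnda, an older symbol of Ifi211 in GENCODE M21, shares 72.9% of its 50-base windows with other genes, and the locus of Mndal contains that of Ifi211 and overlaps that of Ifi203.

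The Parp family is named after enzymes that add ADP-ribose to proteins, and Dtx3l is the ubiquitin ligase that works as a partner of Parp9. All 4 rose, with a median of 1.89. Parp14 rose most, at 3254, 2732 and 3023 CPM in M1 NS and 542, 696 and 317 CPM in M0 NS, an edgeR log2 fold change of 2.53 (SE 0.26, adjusted p = 5.5e-06). Parp9, Dtx3l and Parp14 are neighbours on chromosome 16, and the first pair overlap head to head, so without a known strand setting their reads could not be assigned with certainty. Both Trim30 genes, ubiquitin ligases of the tripartite motif family, rose. Trim30d measured 329.9, 227 and 279.7 CPM in M1 NS and 70.02, 87.4 and 40.8 CPM in M0 NS, an edgeR log2 fold change of 2.08 (SE 0.27, adjusted p = 4.19e-05).

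The Schlafen genes, clustered on chromosome 11, are known for effects on immune cell growth and on tRNA. All 4 rose, with a median of 3.05. Slfn4 measured 168, 109 and 107 CPM in M1 NS and 4.77, 11.5 and 2.9 CPM in M0 NS, an edgeR log2 fold change of 4.33 (SE 0.41, adjusted p = 2.96e-06). Slfn1 had a log2 fold change of 3.77, while Slfn5, the most abundant of the 4 per kilobase in M1 NS and M0 NS, had 1.28.

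Of the other 10 interferon-induced genes, 9 rose, with a median of 2.19. Ifi44 rose most and measured 453, 325 and 428 CPM in M1 NS and 26.8, 60.03 and 9.88 CPM in M0 NS, an edgeR log2 fold change of 3.64 (SE 0.49, adjusted p = 5.33e-05). Bst2 (tetherin), which holds budding virus at the cell surface, measured 940.5, 1112 and 800.4 CPM in M1 NS and 202, 300.1 and 161 CPM in M0 NS. Bst2 had the highest member level per kilobase in M0 NS, 244.8 CPM per kb, and averaged 1053 CPM per kb in M1 NS. Ifi27l2a was the member not called. It measured 91.4, 126 and 65.8 CPM in M1 NS and 59.4, 102 and 56.3 CPM in M0 NS, ranges that overlapped, with an edgeR log2 fold change of 0.38 (SE 0.28, adjusted p = 0.279).

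Under the MERRICAL gapmer, too, most members were higher in M1 than in M0 cells. In M1 KD against M0 KD, 45 of the 49 members rose and 0 fell, where 26.9% of all genes rose, 31.4% fell and 58.3% were called in either direction. At an unadjusted p under 0.05, 0 members were lower in M1 KD, where 33.7% of all genes were, and DESeq2 called 0 lower. The median log2 fold change of the members was 2.17, beside -0.11 over all genes. With library size alone the median of all genes moved to -0.59, and 39 members were called, all higher, with a members' median of 1.68. The 4 members not called were Slfn5 (0.02), Samd9l (-0.10), Ifi203 (0.40) and Ddx60 (0.70). Slfn5 measured 370.1 and 843 CPM in M1 KD and 610.3, 573 and 613 CPM in M0 KD, so the M1 KD libraries lay on either side of the M0 KD range. Samd9l measured 150.4 and 248 CPM in M1 KD and 219, 192 and 230.4 CPM in M0 KD, likewise 1 library below and 1 above that range.

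The largest rises by family in M1 KD against M0 KD were those of Ifit1 (3.55), Isg15 (4.65), Oasl1 (7.79), Mx1 (4.55), Zbp1 (4.06), Rsad2 (4.92), Ifi205 (5.11), Parp12 (1.84), Trim30d (1.26), Slfn4 (4.42) and Phf11b (4.13). Oasl1 measured 4045 and 4025 CPM in M1 KD and 20.4, 17.3 and 17 CPM in M0 KD, an edgeR log2 fold change of 7.79 (SE 0.39, adjusted p = 2.72e-08). It averaged 1547 CPM per kb in M1 KD, where only Rsad2 (1831 CPM per kb) was higher among the members. Calls of 7 of the 45 members (Ddx58, Dtx3l, Eif2ak2, Ifi27l2a, Rtp4, Trim30a and Trim30d) were lost under at least 1 alternative processing, and those of the other 38 were not. Leaving out M1 KD 6 lost the call of each of these 7 but Ifi27l2a, which was lost without M1 KD 5.

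The direct comparison of the gapmers in M1 cells gave a mixed picture in which few members were called, some up and some down. In M1 KD against M1 NS, 8 of the 49 members were called, where 36.8% of all genes tested were. The 3 that rose (17.6% of all genes rose) were Oasl1, Isg20 and Xaf1. The 5 that fell (19.2% of all genes fell) were Slfn1, Slfn5, Parp14, Ifih1 and Dtx3l. The median log2 fold change of the members was -0.03, beside 0.00 over all genes, with 23 members above 0 and 26 below, where 50% and 49.9% of all genes lay. M1 KD holds libraries numbered 5 and 6 and M1 NS those numbered 1, 2 and 4, so the gapmer and whatever the numbers stand for cannot be told apart here. This comparison uses the same M1 NS libraries as M1 NS against M0 NS, so their values are not independent. Ranges did not overlap for 14 members with M1 KD above and 12 with M1 KD below, where 26.1% and 26.3% of all genes lay apart in these directions. The count of calls depended on the filter on low counts and on the libraries fitted. Without the filter 15 members rose and 12 fell, where 2820 of 29288 genes rose and 2894 fell. That total includes the low-count genes the filter removes, so its 19.5% called is not a like measure beside the 36.8%. In number, 5714 genes were called without the filter and 5535 with it. In the fit of the 2 groups alone 11 members were called, where 22.9% of 13565 genes were. A member not called is not shown to be unchanged.

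**Figure D2:**
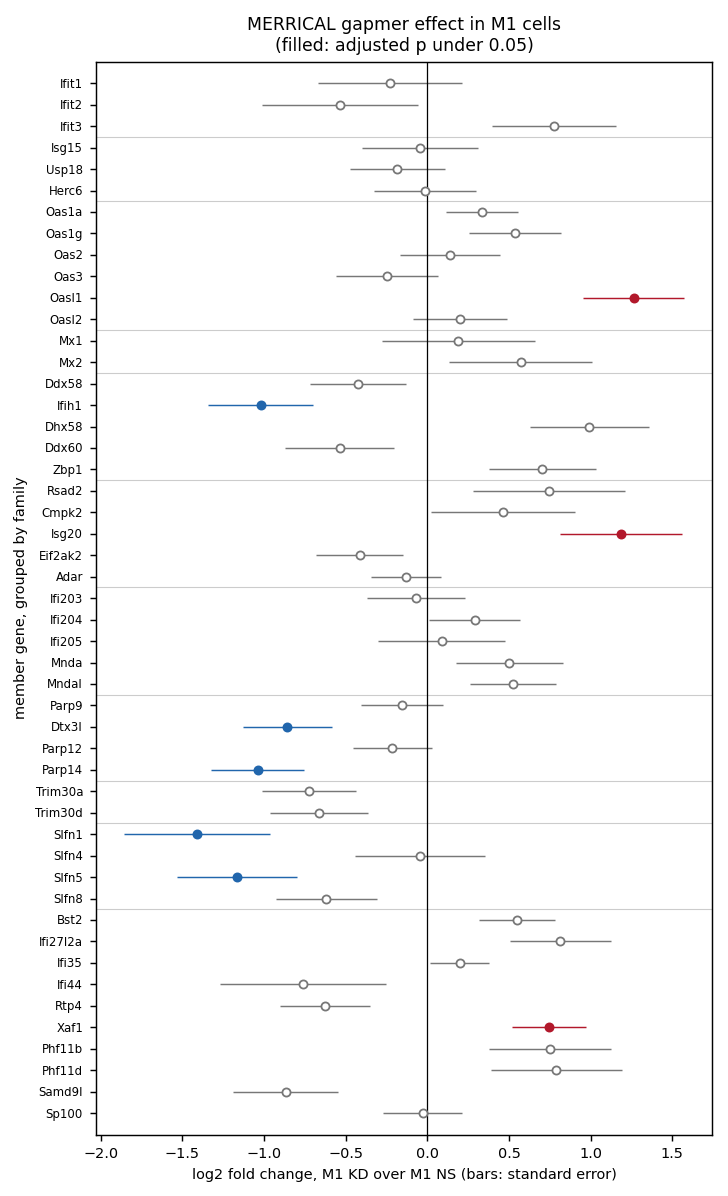
Log2 fold change of each of the 49 members in M1 KD over M1 NS (horizontal axis, bars are the standard error), in families down the page. Filled points mark the 8 members with an edgeR adjusted p under 0.05: Oasl1, Isg20 and Xaf1 to the right of 0, and Ifih1, Dtx3l, Parp14, Slfn1 and Slfn5 to the left.

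Oasl1 (chr5:114923240-114937915, plus strand, GRCm38) measured 4045 and 4025 CPM in M1 KD and 1823, 2019 and 1205 CPM in M1 NS. The 2 M1 KD libraries were nearly equal and both lay above the 3 M1 NS libraries. The test gave an edgeR log2 fold change of 1.26 (SE 0.31, adjusted p = 0.00789), and its call was the only one of the 8 that held under every alternative run, with values of 0.97 to 1.41. The value was 0.97 with the length trend removed, 1.25 without M1 KD 5 and 1.26 without M1 KD 6. The other 5 Oas genes were not called, with log2 fold changes of -0.25 (Oas3) to 0.54 (Oas1g).

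Isg20 (chr7:78913424-78920396, plus strand) measured 198 and 169.9 CPM in M1 KD and 90.4, 99.2 and 53 CPM in M1 NS, again with no overlap. The test gave an edgeR log2 fold change of 1.19 (SE 0.37, adjusted p = 0.0267), a call that was lost without M1 KD 5, M1 KD 6, M1 NS 1 or M1 NS 4 and with the length trend removed. The enzymes Rsad2 and Cmpk2 had log2 fold changes of 0.74 and 0.46 that were not called and ranges that overlapped. Rsad2 measured 5793 and 10080 CPM in M1 KD and 6585, 3934 and 3701 CPM in M1 NS, and M1 KD 6 held the highest value of all libraries. Xaf1 (chr11:72301629-72313733, plus strand), which binds the apoptosis inhibitor XIAP, measured 266 and 301 CPM in M1 KD and 192, 162 and 154 CPM in M1 NS, an edgeR log2 fold change of 0.75 (SE 0.23, adjusted p = 0.023). The call of Xaf1 was lost without M1 KD 5, M1 KD 6 or M1 NS 2.

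The members that fell included 2 of the 4 Schlafen genes. Slfn1 (chr11:83116849-83122670, plus strand) measured 46.6 and 48.2 CPM in M1 KD and 132, 105 and 141 CPM in M1 NS, an edgeR log2 fold change of -1.41 (SE 0.45, adjusted p = 0.0278). Slfn5 (chr11:82951349-82964840, plus strand) measured 370.1 and 843 CPM in M1 KD and 1666, 1188 and 1234 CPM in M1 NS, an edgeR log2 fold change of -1.17 (SE 0.37, adjusted p = 0.0259). The M1 KD libraries agreed closely for Slfn1 and differed by more than 2-fold for Slfn5. Slfn4 and Slfn8 were not called, at -0.04 and -0.62.

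In the Parp family Parp14 (chr16:35832874-35871544, minus strand) measured 1246 and 1680 CPM in M1 KD and 3254, 2732 and 3023 CPM in M1 NS, an edgeR log2 fold change of -1.04 (SE 0.28, adjusted p = 0.0138). Its neighbour Dtx3l (chr16:35926511-35939151, minus strand) measured 224 and 316 CPM in M1 KD and 556, 450.5 and 461 CPM in M1 NS, an edgeR log2 fold change of -0.86 (SE 0.27, adjusted p = 0.0279). Both M1 KD libraries lay below all M1 NS libraries for this pair. Parp9, which overlaps Dtx3l, was not called, at -0.15. Among the sensors Ifih1 (chr2:62595798-62646255, minus strand) measured 200.4 and 342 CPM in M1 KD and 702, 513 and 435 CPM in M1 NS, an edgeR log2 fold change of -1.02 (SE 0.32, adjusted p = 0.0267). Dhx58, which belongs to the same helicase family, had the opposite sign and was not called: it measured 454 and 973 CPM in M1 KD and 424, 454 and 197 CPM in M1 NS, an edgeR log2 fold change of 0.99 (SE 0.37, adjusted p = 0.0514).

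The families without a call were Ifit, the Isg15 system, Mx, Ifi200 and Trim. Isg15 measured 762 and 1015 CPM in M1 KD and 1042, 1074 and 632 CPM in M1 NS, with a log2 fold change of -0.04 (SE 0.35). Ifit1 measured 402 and 1033 CPM in M1 KD and 1065, 739 and 718 CPM in M1 NS, so 1 M1 KD library lay below the M1 NS range and 1 inside it. Both Trim30 genes had all M1 KD values below all M1 NS values, with log2 fold changes of -0.73 (Trim30a) and -0.66 (Trim30d) that did not pass the test.

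The 2 M1 KD libraries differed from each other over the members. M1 KD 6 was above M1 KD 5 for 39 of 49 members, with a median ratio of 1.29, where it was above for 50.2% of all genes with a median ratio of 1. The largest gap was that of Mx2, at 308 CPM in M1 KD 6 and 112 CPM in M1 KD 5. Without M1 KD 5, all 5 lower calls were lost, and the members' median was 0.14. Without M1 KD 6 the members' median was -0.23. Without M1 NS 1, which was above its group mean for 48 members, 1 member (Parp14) fell, where 2370 of 14938 genes fell. The call of Slfn1 was also lost without M1 KD 6 or M1 NS 4, and that of Dtx3l with upper-quartile scaling. The M0 libraries enter this comparison through the shared estimate of the spread. Without M0 NS 2, 8 members rose and 8 fell, where 33.5% of all genes were called. Without M0 NS 4, 8 members rose and 9 fell, where 36.4% of all genes were called. Of the 8 macrophage markers 2 rose and 2 fell, and of the 7 markers of classical activation 0 rose and 4 fell. Markers of other cells differed as well: the summed level of the neutrophil list was 199 to 208 CPM in M1 KD and 236 to 308 CPM in M1 NS. Of that list Lcn2 made up most in M1 KD, at 186 and 116 CPM in M1 KD and 138, 132 and 138 CPM in M1 NS, while S100a9 measured 6.72 and 28.1 CPM in M1 KD and 65.2, 70.6 and 40.9 CPM in M1 NS. Prtn3 went the other way, at 1.56 and 1.39 CPM in M1 KD and 0.252, 0.119 and 0.229 CPM in M1 NS. Of these 10 markers 1 rose, 2 fell and 7 were not called. Of the 2 tested T cell markers 1 (Lck) rose and 1 (Cd8a) was not called. Lck measured 7.9 and 6.91 CPM in M1 KD and 1.15, 2.14 and 0.889 CPM in M1 NS. Cd8a measured 0.988 and 3.44 CPM in M1 KD and 2.1, 1.78 and 0.373 CPM in M1 NS, ranges that overlapped. The summed level of 3 NK cell markers was 50.4 to 70.4 CPM in M1 KD and 21 to 33.7 CPM in M1 NS, nearly all from Klrk1 since Ncr1 and Klrb1c were near 0. Their part in the member levels was not tested.

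The direction in M1 KD against M1 NS went with transcript length over the members. Of the 13 members whose longest annotated transcript exceeds 4000 bases, 12 had a log2 fold change below 0, and their median was -0.62. The 13 members under 2000 bases had a median of 0.50, and the 23 between had 0.14. The same classes over all genes had medians of -0.20, 0.17 and 0.06 for long, short and middle transcripts, so the order was shared and the spread was wider among the members. Across the 49 members the correlation of length and log2 fold change was -0.60 (Spearman) and -0.54 (Pearson), and across 14741 genes it was -0.14 and -0.04. These are descriptions over genes measured in the same 5 libraries, and transcript length is itself tied to GC content and exon number. The Spearman value over the members was -0.09 in M1 NS against M0 NS and -0.41 in M1 KD against M0 KD. It had the opposite sign, 0.46, in M0 KD against M0 NS. Over all genes these values were -0.05, -0.18 and 0.19. These comparisons share groups with this one or with each other. With GC content in place of length, the Spearman value in M0 KD against M0 NS was -0.61 over the members and -0.51 over all genes. In M1 KD against M1 NS it was 0.40 and 0.13.

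**Figure D3:**
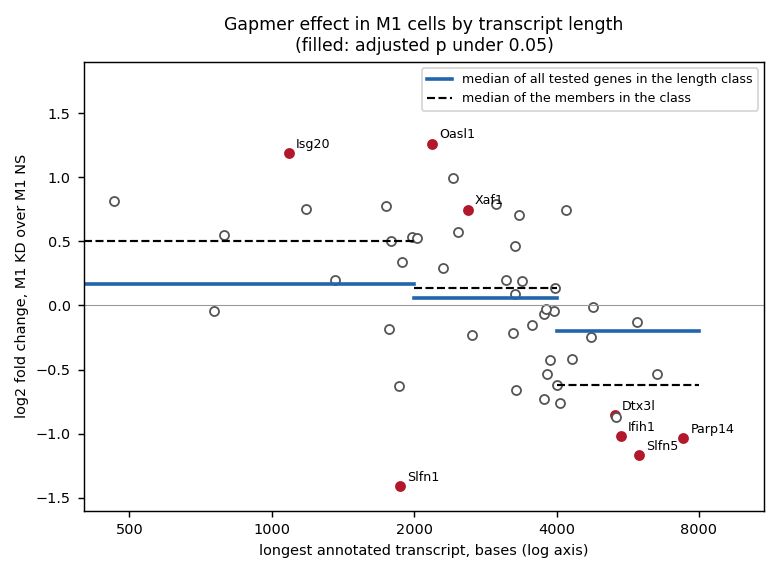
Log2 fold change in M1 KD over M1 NS (vertical axis) against the longest annotated transcript in bases (horizontal log axis) for 49 members. Filled points have an edgeR adjusted p under 0.05, solid lines are medians of all tested genes and dashed lines medians of the members in the length classes under 2000, 2000 to 4000 and over 4000 bases. The dashed lines step down from 0.50 to 0.14 and -0.62.

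When a smooth trend in the length, GC content and exon number of transcripts was removed per library, a setting chosen after seeing the data, Oasl1 had 0.97 and stayed called. Isg20 then had 0.91 and was not called, and Xaf1 had 0.60 and was. Slfn5 had -1.02, Parp14 -0.86, Ifih1 -0.88, Dtx3l -0.73 and Slfn1 -1.36, all still called, and 8 members in all were lower. The part of transcript length in these values was not tested further.

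In M0 cells no member was called between the gapmers. In M0 KD against M0 NS, 0 of 49 members and 0 of 15024 genes (0%) passed an adjusted p under 0.05 with edgeR. At an unadjusted p under 0.05 there were 0 members, where 13% of all genes passed. DESeq2 called 175 genes (1.25% of those tested) and the fit of the 2 groups alone 1103 (8.06%), with 0 members in either. The members' median log2 fold change was -0.03, with a range of -0.64 to 0.35. The ranges of the groups overlapped for all 49 tested members, where 35.1% of all genes had ranges apart. A p that misses the threshold does not show that the levels were equal.

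The 3 members of each sign with the smallest p in M0 KD against M0 NS were Bst2, Isg20 and Oasl1 on the lower side and Eif2ak2, Herc6 and Samd9l on the higher side. Bst2 measured 164, 168 and 159.6 CPM in M0 KD and 202, 300.1 and 161 CPM in M0 NS, an edgeR log2 fold change of -0.43 (SE 0.21, adjusted p = 0.403). Isg20 measured 4.91, 5.09 and 9.28 CPM in M0 KD and 9.64, 15.2 and 5.38 CPM in M0 NS, an edgeR log2 fold change of -0.64 (SE 0.36, adjusted p = 0.445), and it was the 1 member called, lower, when no filter on low counts was used. Oasl1 measured 20.4, 17.3 and 17 CPM in M0 KD and 20.6, 35.2 and 14.3 CPM in M0 NS, an edgeR log2 fold change of -0.36 (SE 0.29, adjusted p = 0.581). For these 3 M0 NS 2 lay above all M0 KD libraries. On the other side Eif2ak2 had 0.33 (SE 0.24), Herc6 0.33 (SE 0.28) and Samd9l 0.35 (SE 0.28), each with M0 NS 4 below all M0 KD libraries. Neither placement is particular to these genes, since both held for most members.

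The libraries of the M0 NS group differed in a fixed order over the members. For all 49 members M0 NS 2 was highest, M0 NS 1 in the middle and M0 NS 4 lowest, an order held by 22.9% of all genes tested. M0 NS 2 exceeded M0 NS 4 by a median ratio of 2.37, with a range of 1.39 to 6.08, where the median ratio over all genes was 1.01. The largest ratio was that of Ifi44, at 60.03 CPM in M0 NS 2 and 9.88 CPM in M0 NS 4. The median coefficient of variation of the members was 12.4% in M0 KD and 41.4% in M0 NS, where over all genes it was 10.1% in M0 KD and 12.5% in M0 NS. For 42 of 49 members (85.7%) all 3 M0 KD values lay inside the M0 NS range, where this held for 12.5% of all genes. M0 KD showed a smaller shift of this kind, in which M0 KD 2 was below its group mean for 47 members and M0 KD 4 exceeded M0 KD 2 for 44, with a median ratio of 1.23, where 49.7% of all genes were higher in M0 KD 4. Members were measured in the same libraries and are not independent of each other.

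**Figure D4:**
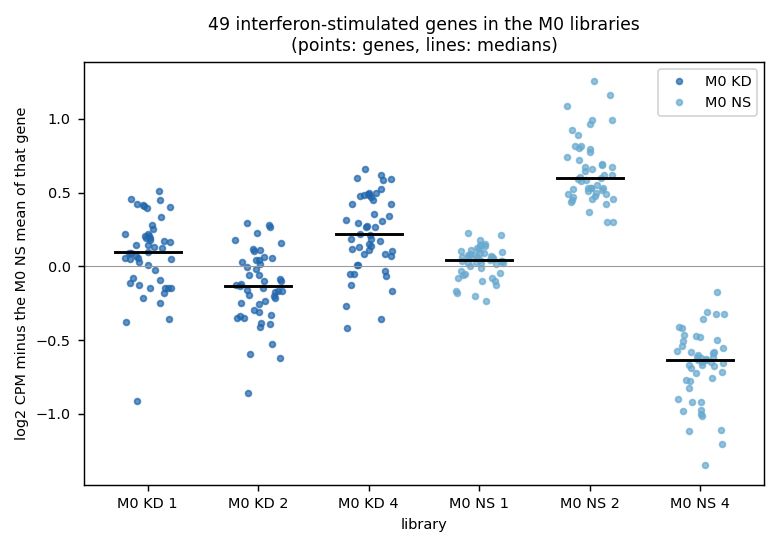
Log2 CPM of each of the 49 members in the 6 M0 libraries (points, M0 KD left and M0 NS right) relative to the M0 NS mean of that gene, with the median as a line. All points of M0 NS 2 lie above 0 and all of M0 NS 4 below it, and the M0 KD medians lie between those of M0 NS 2 and M0 NS 4.

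Other measures also differed between these libraries. The summed level of 10 markers of neutrophils and their precursors was 662 to 711 CPM in M0 KD and 1410, 1240 and 2200 CPM in M0 NS 1, 2 and 4, of which M0 NS 4 is the library with the lowest member levels. The mitochondrial share of counts was 1.28% to 1.45% in M0 KD and 1.02% to 1.14% in M0 NS. The part of either in the member levels was not tested. Without M0 NS 2 the members' median in M0 KD against M0 NS was 0.37, and without M0 NS 4 it was -0.30, with 0 members called in both cases.

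The difference between MERRICAL and NS gapmer libraries was not the same in M1 and M0 cells for 3 members. Since M1 KD alone holds numbers 5 and 6, this difference and whatever the numbers stand for cannot be told apart. The difference of the 2 effects was tested as an interaction in the same fit, in which 27.3% of all genes were called in either direction and 13.1% with the higher effect in M1. Isg20 had a difference of 1.82 on the log2 scale (SE 0.52, edgeR adjusted p = 0.0221), made up of 1.19 in M1 cells and -0.64 in M0 cells. Oasl1 had 1.62 (SE 0.42, edgeR adjusted p = 0.0151). Bst2 had 0.98 (SE 0.31, edgeR adjusted p = 0.036), although neither effect alone was called. Bst2 measured 1294 and 1491 CPM in M1 KD and 940.5, 1112 and 800.4 CPM in M1 NS. No member was called with the lower effect in M1, where 14.2% of all genes were, and at an unadjusted p under 0.05 there were 6 such members, where 20.6% of all genes were so. DESeq2 called 4 members with the lower effect, where 2249 of 14519 genes were so called. The lowest values were those of Slfn5 (-1.26), Samd9l (-1.22) and Slfn1 (-1.16). All 3 calls were lost with the length trend removed, where 0 members were called higher. The call of Oasl1 held under the other alternatives. That of Isg20 was also lost without M1 KD 5, M0 KD 1, M0 KD 2 or M0 NS 2. That of Bst2 was also lost without any 1 of M1 KD 5, M1 KD 6, M1 NS 1, the 3 M0 KD libraries, M0 NS 1 and M0 NS 2. Members called with the higher effect numbered 1 without M0 KD 1, where 1374 of 14931 genes were so called, and 1 without M0 KD 2 (1490 of 14994 genes). Without M0 NS 4 they numbered 7 (1564 of 15022 genes). Members called with the lower effect numbered 1 without M1 NS 2 (2515 of 15098 genes) and 7 without M0 NS 2 (1738 of 15089 genes).

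**Figure D5:**
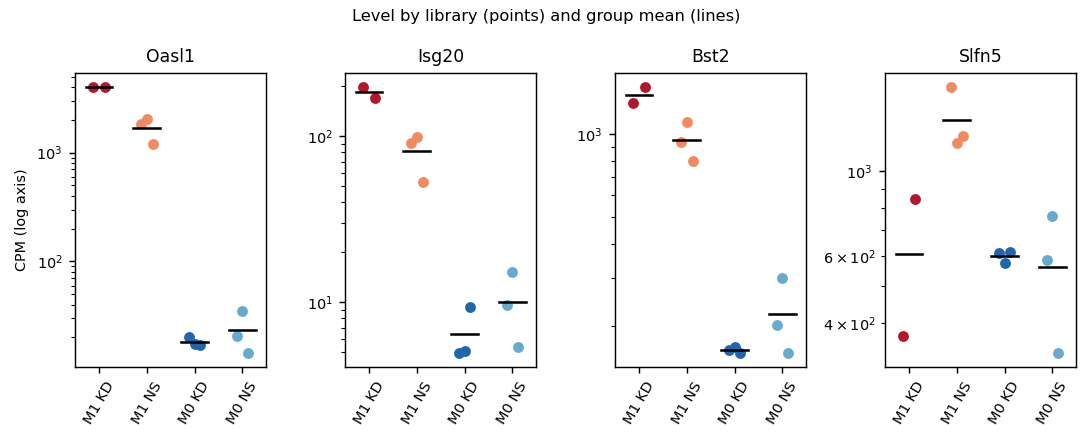
Level in CPM (vertical log axis, scaled per panel) of Oasl1, Isg20, Bst2 and Slfn5 in M1 KD, M1 NS, M0 KD and M0 NS from left to right. Points are libraries and lines group means. The M1 KD points lie above the M1 NS points for the first 3 genes, and for Slfn5 both M1 KD points lie below the M1 NS points.

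The genes that carry the interferon signal were read from a list of 36, of which 23 were tested. In M1 NS against M0 NS 17 of them rose and 3 fell, where 26.9% of all genes rose and 28.6% fell. The calls of Ifnar2, Ifngr2, Irf2, Irf9, Pias1 and Ptpn11 were lost under at least 1 alternative. Of 14 type I interferon ligands only Ifnb1 passed the filter, and its level was at most 1.02 CPM in any library. It measured 1.01, 0.95 and 0.373 CPM in M1 NS and 0.116, 0.107 and 0.0238 CPM in M0 NS, an edgeR log2 fold change of 3.19 (SE 0.75, adjusted p = 0.00325). Among receptors, Ifngr1 of the interferon gamma receptor fell (-2.46), and Jak2, the kinase used by that receptor, rose (3.33). Irf1 (3.37) had the smallest p of the STAT and IRF factors, and Socs3 (6.14) that of the feedback inhibitors. Irf7, which amplifies interferon production, measured 3134, 3496 and 1926 CPM in M1 NS and 164, 352 and 99.3 CPM in M0 NS.

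In M1 KD against M1 NS 5 of the 23 rose and 3 fell, where 17.6% of all genes rose and 19.2% fell, so the share called was no higher than the 36.8% of all genes. Irf8, a factor of the macrophage lineage, measured 3460 and 2626 CPM in M1 KD and 836, 1049 and 546 CPM in M1 NS, an edgeR log2 fold change of 1.91 (SE 0.24, adjusted p = 0.000117). Irf1, a factor that acts in both interferon pathways, measured 4485 and 3440 CPM in M1 KD and 1343, 1600 and 1118 CPM in M1 NS, an edgeR log2 fold change of 1.55 (SE 0.20, adjusted p = 0.00015). For both genes every M1 KD library exceeded every M1 NS library. The other rises were Irf5 (0.85), Ptpn2 (0.87) and Socs1 (1.16), and the falls were Ifnar1 (-0.36), Ptpn6 (-0.63) and Ptpn11 (-0.88). The call of Ifnar1 was lost under 14 of 18 alternatives, among them the omission of either M1 KD library. That of Ptpn6 was lost under 6, among them the omission of M1 KD 5, M1 KD 6, M1 NS 1 or M1 NS 2. That of Socs1 was lost without M1 KD 6, where it had 0.53, and was 1.58 without M1 KD 5. Stat2 and Irf9 were not called, with 0.04 for Stat2 and 0.01 for Irf9. Ifnb1 had -0.07 and was not called.

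In M0 KD against M0 NS 0 of the 23 pathway genes were called. Irf7 measured 165, 137 and 135 CPM in M0 KD 1, 2 and 4, against 164, 352 and 99.3 CPM in M0 NS 1, 2 and 4. In M0 NS it had the order seen for the members, with library 2 highest and library 4 lowest. In the interaction 7 pathway genes had the higher effect in M1 and 1 (Ptpn11) the lower, where 13.1% and 14.2% of all genes did. The calls of Ifnar2, Irf3, Irf5, Ptpn2 and Socs1 were lost under 2 to 12 of 17 alternatives, and those of Irf1, Irf8 and Ptpn11 under none. The highest was Irf8 (2.14, SE 0.32, edgeR adjusted p = 0.000739).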

How the data were processed

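The submitters' processing notes name STAR 2.5.2b, Trimmomatic 0.36, Subread 1.5.2 with its program featureCounts, and the build GRCm38. The sources used here do not give the annotation, the strand setting or the handling of reads shared by paralogs. The deposited table holds the raw counts that the authors obtained for each gene in each library. Its entry with a blank name, at most 0.000305% of a library's counts, was left out. The deposited normalized table was not used.

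The 11 libraries entered a single edgeR 4.0.16 quasi-likelihood fit (R 4.3.3, robust option) with a coefficient for each of the 4 groups, TMM factors and genes kept by filterByExpr (minimum count 10, minimum total 15). A gene was called when its Benjamini-Hochberg adjusted p over 15024 genes was under 0.05, and SE is the standard error of a log2 fold change. Total counts of 30040632 to 43250392 per library limit genes of low count most.

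The members, families and other lists were chosen with earlier results of these data known. The text names, in each comparison, each family's called members with the largest rise and fall, or, where no member of any family was called, the 3 members of each sign with the smallest p. Further genes were named when their family was described. Gene positions and transcript lengths came from GENCODE M21 on GRCm38, and 39862 of 42375 names matched. Promoters came from RefSeq on GRCm38.p6. Alternatives were other scaling factors, no filter on low counts, DESeq2 1.42.0, the 2 compared groups alone, the library number as a block and each library left out. The procedure was tested on simulated data.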

Additional observations from a re-analysis of the deposited data

Results flagged for a closer look

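For 3 members the difference between the MERRICAL and NS gapmer libraries was not the same in M1 and M0 cells by the interaction test of the edgeR fit over all 15024 genes. Oasl1 had a difference of 1.62 on the log2 scale, with both M1 KD libraries above all M1 NS libraries. Isg20 had a difference of 1.82, with both M1 KD libraries above all M1 NS libraries. Bst2 had a difference of 0.98, with both M1 KD libraries above all M1 NS libraries and the M0 KD libraries inside or near the lower end of the M0 NS range. Among all genes 27.3% were called in the same test. With the length trend removed the differences were 1.12 for Oasl1, 1.34 for Isg20 and 0.50 for Bst2, and none of the 3 was called. M1 KD alone holds libraries numbered 5 and 6, so the difference and whatever the numbers stand for cannot be told apart. Groups held 2 or 3 libraries, too few to test single libraries as outliers.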

How the results depend on the processing

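The direction of every called member held under every alternative run, and the members whose calls were lost are named with each comparison. In M1 NS against M0 NS 46 to 48 members were called higher and 0 lower throughout. With library size alone the members' median was 1.72, and that of the Oas genes 1.401, of Ifi200 0.86 and of the other interferon-induced genes 1.80, and 2 pathway genes changed sign, Irf9 (-0.080) and Irf2 (-0.046). The Oas median was 1.59 to 2.13 with single libraries left out. In M1 KD against M0 KD the members' median was 1.68 with library size alone and 2.01 with the length trend removed, a setting chosen after seeing the data.

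In M1 KD against M1 NS the fit of the 2 groups alone called 3104 genes, and leaving out single libraries gave 3658 to 5796. With all genes so called in brackets, members called higher were 6 with upper-quartile factors (3454 of 15024) and 5 with DESeq2 (2863 of 16791). In the 2 groups alone they were 6 (1558 of 13565). With no filter they were 15 (2820 of 29288, low-count genes included), and with single libraries left out up to 8. Members called lower were 12 with no filter (2894 of 29288), 8 with the length trend removed (3452 of 15024) and up to 9 with single libraries left out. Leaving out single libraries moved the members' median between -0.23 and 0.14, and the family medians between -0.996 and 0.29 (Ifit), -0.38 and 0.86 (Mx), 0.026 and 0.79 (RNA and nucleotide enzymes), -0.79 and -0.36 (Parp), -1.08 and -0.40 (Trim) and -1.26 and -0.49 (Schlafen). The Ifi200 median was 0.44 with upper-quartile factors. With the length trend removed the medians were 0.061 (Oas) and 0.093 (other interferon-induced genes).

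In M0 KD against M0 NS the genes called were 385 with no filter (1 member, lower), 175 with DESeq2, 1103 in the 2 groups alone and 0 to 1 with single libraries left out. The members' median was -0.30 to 0.37 with single libraries left out. Herc6 changed sign with the length trend removed (-0.043), and Oasl1, at -0.61 to 0.063 with single libraries left out, without M0 NS 2. In the interaction, with all genes so called in brackets, members called higher were 11 with no filter (2135 of 29288) and 5 with DESeq2 (2287 of 14519). They were 0 with the length trend removed (1678 of 15024) and 1 to 7 with single libraries left out. Members called lower were 5 with library size alone (2506 of 15024), 10 with no filter (2244 of 29288) and 4 with DESeq2 (2249 of 14519). They were 0 to 7 with single libraries left out. The members' median was then -0.27 to 0.21. Irf3 changed sign with the length trend removed (-0.011). The cause of these shifts was not tested.

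Library numbers were not taken to pair the samples: correlations of same-numbered libraries' deviations ran from -0.101 to 0.126 over all genes and from -0.363 to 0.504 over the members. With the number as a replicate block over the 9 libraries without M1 KD, 8048 genes and 47 members were called in M1 NS against M0 NS, where Ifi203 was lost, and 0 in M0 KD against M0 NS.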
